A study of Mus musculus with 16 samples.

Results

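The S100 proteins were followed in ribosome footprints and cytoplasmic RNA of cultured neural stem cells. The 8 genes S100a1, S100a4, S100a6, S100a10, S100a11, S100a13, S100a16 and S100b were taken by symbol from the 20409 genes of the count table. They were chosen by their footprints in KO and WT cultures and by low RNA: S100a11 footprints differed between genotypes at very low S100a11 RNA. Both values therefore describe the genes and are not tested. A further 9 S100 genes in the table were set beside them.

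Male FVB/N mice aged 8 to 10 weeks gave the cells, which were isolated from the dentate gyrus of animals without the X-linked gene Fmr1 (Fmr1 -/y, called KO) and of wild-type (WT) littermates. The product of Fmr1, FMRP, binds RNA and acts on translation. There were 4 independently isolated cultures of each genotype, and each of the 8 cultures gave 1 footprint and 1 RNA library, 16 libraries in all. All cultures were kept dividing with the growth factors FGF2 and EGF (20 ng/ml of each) and received cycloheximide, which arrests elongating ribosomes, at 100 µg/ml for 10 min. Both genotypes were thus observed outside the tissue. The random molecular identifiers of the footprint libraries were 8 nt long in replicates 3 and 4, and 5 nt long in replicates 1 and 2.

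S100 proteins are small calcium-binding proteins that mostly work as dimers and carry a pair of EF-hands, the helix-loop-helix fold that holds a calcium ion. Calcium binding opens a surface that grips partner proteins, and some members also leave the cell and signal through receptors such as RAGE (Ager). In the brain S100b is best known as a marker of astrocytes. S100a10 is the exception in the family, because its loops no longer bind calcium and it sits in a stable complex with annexin A2. S100a11 pairs with annexin A1, S100a6 binds calcyclin-binding protein (Cacybp), S100a4 binds the heavy chain of non-muscle myosin (Myh9), S100a13 takes part in the secretion of FGF1 without a signal peptide, and S100a1 is known for calcium handling in muscle.

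Of the 8 genes, 7 lie on chromosome 3 in 2 groups (GRCm38.p6, positions counted from 1). S100a1 (90511034 to 90514330), S100a13 (90514233 to 90524581), S100a16 (90537254 to 90543151), S100a4 (90603770 to 90606045) and S100a6 (90612894 to 90614414) fall within 103.4 kb. S100a11 (93520496 to 93526288) and S100a10 (93555117 to 93564645) fall within 44.1 kb of each other, and S100b lies apart on chromosome 10 (76253836 to 76261319). All are protein-coding. S100a1 and S100a13 overlap, so reads from the shared stretch could count for either where strand was not used. A pseudogene copy of S100a11 (S100a11-ps, chromosome 12, 73961087 to 73961577) could take or lend S100a11 reads, since RSEM shares out reads that fit more than 1 gene.

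The promoters of S100a11 and S100b, which among the fitted members had the largest footprint differences between genotypes (S100a11) and between the 2 sets of replicates (S100b), are shown as the 250 bases before the RefSeq start of each gene (GRCm38.p6, plus strand, chr3:93520246-93520495 and chr10:76253586-76253835). The capitals mark TGAGTCA, the core of sites for AP-1 factors, and GGGCGG, the core of sites for Sp1-type factors.
S100a11: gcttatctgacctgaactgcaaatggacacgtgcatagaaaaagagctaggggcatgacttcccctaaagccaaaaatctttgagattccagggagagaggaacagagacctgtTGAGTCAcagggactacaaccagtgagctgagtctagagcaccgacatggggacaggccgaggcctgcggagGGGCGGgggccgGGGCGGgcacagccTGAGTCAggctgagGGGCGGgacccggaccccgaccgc
S100b: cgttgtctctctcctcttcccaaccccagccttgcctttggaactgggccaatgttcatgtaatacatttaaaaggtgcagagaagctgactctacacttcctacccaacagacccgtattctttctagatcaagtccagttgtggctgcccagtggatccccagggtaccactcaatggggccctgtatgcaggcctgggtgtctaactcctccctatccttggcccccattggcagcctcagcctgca
The S100a11 window held TGAGTCA 2 times, starting 136 and 38 bases before the gene start, and GGGCGG 3 times, at 64, 52 and 24 bases. Over 32851 mouse promoter windows of the same length, 4.46% held TGAGTCA on either strand, 0.167% held it at least 2 times, and 32.7% held GGGCGG. The S100b window held neither of these, nor TATAAA, the TATA box, which 12.4% of the windows held. Among the other members with a promoter sequence, GGGCGG occurred once, in 1 of the S100a16 windows, and TATAAA once, in that of S100a4, 31 bases before its start. No promoter sequence was found for S100a10, which was not searched. These motifs were chosen after the S100a11 sequence had been seen, and a match only says that the letters are there.

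The 8 footprint libraries held 9430732 to 17220236 counts and the 8 RNA libraries 5343042 to 6600023. Levels are given as CPM, counts scaled to library size within an assay. Fmr1 footprints followed the labels, at 24.1, 27.0, 12.7 and 14.7 CPM in KO cultures 1 to 4. WT cultures 1 to 4 had 129, 150, 149 and 149 CPM. Fmr1 RNA separated less cleanly, with 8.64, 30.9, 10.7 and 3.35 CPM in KO cultures 1 to 4. WT cultures 1 to 4 had 40.9, 107, 37.3 and 27.4 CPM of Fmr1 RNA. The RNA ranges overlapped, since KO culture 2 lay above WT culture 4. Every WT culture still held more Fmr1 RNA than the KO culture sharing its number. All 12 neural stem and progenitor markers had counts in both assays, but Prom1 had only 1 RNA count, in KO cultures. Their summed footprints were 8228 to 11749 CPM in KO and 10510 to 15281 CPM in WT cultures. Genes listed for other lineages had footprints too, but a few genes held most of each sum. In KO cultures Olig1 averaged 963, Cnp 245 and Sox10 0.645 CPM. Map2 averaged 980, Tubb3 46.5 and Dcx 1.18 CPM, and Fn1 197, Fbln1 62.6 and Col1a1 0.585 CPM. Whether cells of those lineages were there was not tested. Oligodendrocyte lineage markers summed to 1672 to 2112 CPM in KO and 1389 to 2794 CPM in WT cultures. Neuroblast and neuron markers summed to 942 to 1270 and 1139 to 1872 CPM, fibroblast and meningeal markers to 177 to 341 and 244 to 498 CPM. Microglial markers summed to at most 0.186 CPM in any footprint library, with 6 of 8 at 0.

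The family was dominated by S100a10. In footprints S100a10 reached 112, 228, 55.5 and 17.2 CPM in KO cultures 1 to 4, and 258, 228, 93.5 and 83.4 CPM in WT cultures 1 to 4. Per transcript length, in the authors' rounded TPM, S100a10 footprints averaged 443 ± 399 in KO and 720 ± 443 in WT cultures (SD, n = 4 each). S100b came next with 79.8 ± 64.6 TPM in KO and 154.5 ± 208 TPM in WT cultures, followed by S100a11 with 27.5 ± 12.5 TPM in KO and 151.5 ± 74.2 TPM in WT cultures. S100a16, a broadly expressed member, stood at 25.3 ± 15 TPM in KO and 21.5 ± 4.04 TPM in WT cultures. S100a4 averaged 7.0 ± 3.74 TPM in KO and 5.0 ± 2.94 TPM in WT cultures, and S100a13 was lower still. In KO cultures each gap between neighbours in the order from S100a10 to S100a4 was smaller than their summed SDs. In WT cultures the gaps from S100a11 to S100a16 and from S100a16 to S100a4 were larger than that.

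S100a6 and S100a1 were close to absent. S100a6 had footprint counts of 0, 1, 1 and 0 in KO cultures and 1, 0, 0 and 2 in WT cultures, and no RNA count in any library. S100a1 had a single footprint count in each genotype, and in RNA 3 counts in 1 WT library and 0 elsewhere. A count of 0 over a group allows up to 3 counts, so lower levels could not be seen at this depth. The 9 further S100 genes in the table were likewise near 0. In footprints their summed level was 0.0927 to 0.297 CPM in KO and 0 to 0.0760 CPM in WT libraries, and in RNA it was 0 in all libraries. S100a8 and S100a9, the calgranulins of neutrophils, were among them, with 2 footprint counts in all for S100a8 and none for S100a9.

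**Figure D1:**
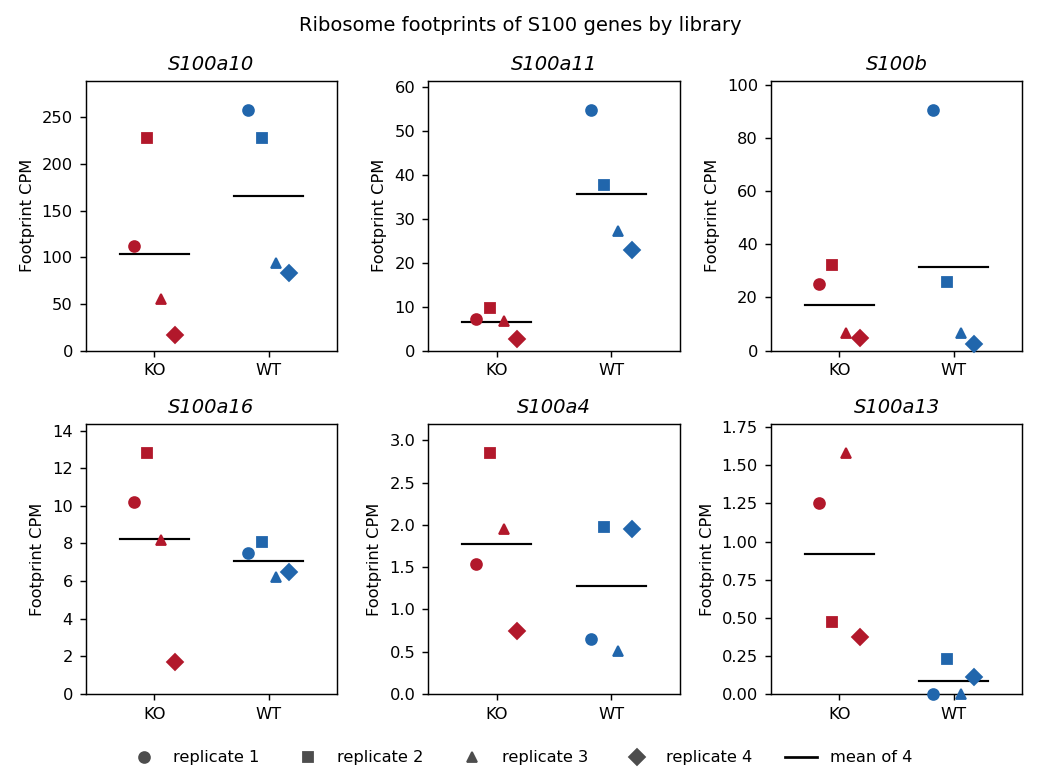
Ribosome footprints of 6 S100 genes in CPM (vertical axes from 0, each with its own scale), with 1 point per library, KO left and WT right, shapes for the replicate numbers and a bar at the mean of 4. S100a11 lies between 2.69 and 9.63 CPM in KO and between 22.9 and 54.7 CPM in WT cultures, while the other panels overlap except S100a13, which is near 0.

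S100a11 footprints were lower in KO cultures. They were 7.18, 9.63, 6.69 and 2.69 CPM in KO cultures 1 to 4 (98, 162, 72 and 29 counts), and 54.7, 37.6, 27.3 and 22.9 CPM in WT cultures 1 to 4 (753, 495, 269 and 212 counts). The highest KO library lay below the lowest WT library. The means were 6.55 ± 2.88 CPM in KO and 35.6 ± 14.1 CPM in WT cultures (SD, n = 4 each), a log2 fold change of -2.44 (SE 0.29) in the edgeR fit. Between cultures of the same number the log2 difference was -2.93, -1.97, -2.03 and -3.09 for numbers 1 to 4. It was -2.43 within replicates 3 and 4 and -2.45 within replicates 1 and 2, so the difference was as large within each identifier length. Leaving out each library in turn gave -2.72 to -2.24. This contrast chose the gene and is given as a description. Among all genes 4 of 11472 passed an adjusted p of 0.05 in footprints (0.0349%), and 0 of the 5 S100 genes that met the filter on low counts were among them; nothing is read from that count.

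S100a11 RNA was too sparse for the fit. RNA counts were 9, 7, 2 and 1 in KO cultures 1 to 4, and 7, 7, 5 and 6 in WT cultures 1 to 4. They summed to 19 in KO and 25 in WT cultures, a ratio per total counts of 0.741 with a counting interval of 0.386 to 1.40 (95%, exact binomial, counting error only). The same ratio in footprints was 0.185, with an interval of 0.165 to 0.208 from 361 KO and 1729 WT counts. The intervals cover counting error and not the spread between cultures. The RNA interval includes 1, so no RNA difference was detectable at this depth.

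The ratio of S100a11 footprints to RNA restates the values that chose the gene and is given only to show its size. In CPM, footprints over RNA of the same culture ranged from 4.71 to 20.6 in KO and from 24.4 to 39.8 in WT cultures. In the authors' rounded TPM, which divides by length, the ratio ranged from 1.11 to 5.4 in KO and from 5.8 to 9.04 in WT cultures. Each ratio rests on 1 to 9 RNA counts, and the highest KO ratio on 2. The gene was absent from the model of translational efficiency (footprints relative to RNA, TE), which needs the filter to be met in both assays.

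S100a10 and S100b did not separate by genotype in footprints. For S100a10 the log2 fold change was -0.89 (SE 0.39), with KO lower in 3 of 4 same-numbered pairs and overlapping ranges. As a description, the S100a10 value stayed negative in all 12 alternatives (-1.29 to -0.51) and with 1 library left out (-1.22 to -0.58). S100b reached 25.1, 32.3, 6.69 and 4.73 CPM in KO cultures 1 to 4 and 90.5, 25.8, 6.80 and 2.70 CPM in WT cultures 1 to 4, with a log2 fold change of -0.44 (SE 0.49). The KO and WT values of S100b were nearly the same in cultures numbered 3, and WT culture 1 was the highest of all. Within replicates 3 and 4 the S100b log2 difference was 0.25 and within replicates 1 and 2 it was -1.01, and without WT culture 1 it was 0.21.

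S100a16 and S100a4 did not separate by genotype in footprints either, and S100a13 was higher in each KO library at very low counts. S100a16 had 10.2, 12.8, 8.18 and 1.67 CPM in KO cultures 1 to 4 and 7.48, 8.06, 6.19 and 6.49 CPM in WT cultures 1 to 4, with a log2 fold change of 0.12 (SE 0.45) that had no stable sign. It was -0.37 in replicates 3 and 4 alone, 0.58 in replicates 1 and 2 alone, and -0.24 to 0.49 with 1 library left out. KO cultures lay above the WT culture of the same number in 3 of 4 pairs, and KO culture 4 was the lowest of the 8. S100a4 had 1.54, 2.85, 1.95 and 0.741 CPM in KO cultures 1 to 4 and 0.654, 1.98, 0.507 and 1.95 CPM in WT cultures 1 to 4, again above the WT culture in 3 of 4 pairs, with a log2 fold change of 0.46 (SE 0.58). S100a13 was too low for the fit. Its footprint counts were 17, 8, 17 and 4 in KO cultures 1 to 4 and 0, 3, 0 and 1 in WT cultures 1 to 4. Each KO library exceeded each WT library. The sums of 46 KO and 4 WT counts gave a ratio of 10.2 with a counting interval of 3.73 to 39.1. That interval covers counting error in the pooled counts and not the spread between cultures. The S100a13 difference is a description and was not tested. S100a13 RNA counts were 3, 0, 4 and 0 in KO cultures 1 to 4 and 0 in all 4 WT cultures, where a sum of 0 allows up to 3 counts.

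**Figure D2:**
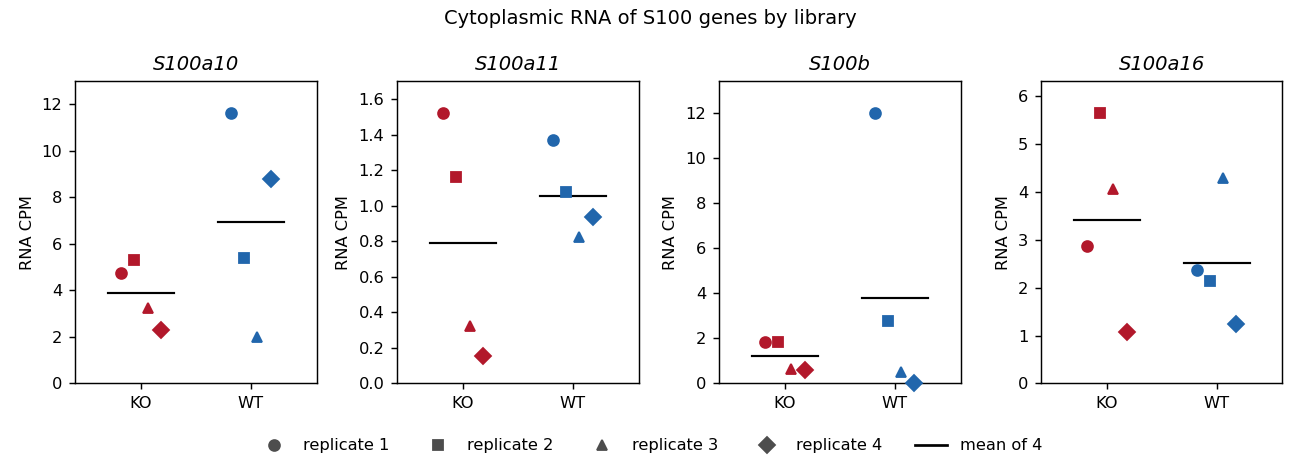
Cytoplasmic RNA of 4 S100 genes in CPM (vertical axes from 0, each with its own scale), with 1 point per library, KO left and WT right, shapes for the replicate numbers and a bar at the mean of 4. KO and WT values overlap in each panel, and S100b is highest in WT culture 1 at 12.0 CPM.

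In RNA the 3 members abundant enough to test did not pass between genotypes. S100a10 RNA was 4.74, 5.31, 3.26 and 2.29 CPM in KO cultures 1 to 4 and 11.6, 5.38, 1.98 and 8.77 CPM in WT cultures 1 to 4, with a log2 fold change of -0.83 (SE 0.54). S100a16 RNA was 2.88, 5.64, 4.07 and 1.07 CPM in KO cultures 1 to 4 and 2.36, 2.15, 4.29 and 1.25 CPM in WT cultures 1 to 4, with a log2 fold change of 0.44 (SE 0.58). The groups overlapped in both genes. S100b RNA was 1.86, 1.83, 0.651 and 0.609 CPM in KO cultures 1 to 4 and 12.0, 2.77, 0.495 and 0 CPM in WT cultures 1 to 4, with a log2 fold change of -1.59 (SE 1.18) that turned to 0.18 without WT culture 1. By edgeR's quasi-likelihood test the adjusted p was 1.0 for each of the 3. At an unadjusted threshold of 0.05 edgeR also passed 0 of them, and DESeq2 and limma-voom called 0 after adjustment. Over all genes 1 of 11097 passed (0.00901%). Fmr1 RNA, with a log2 fold change of -1.99 (SE 0.67), did not pass after adjustment either. A change of that size could thus be missed in this fit. S100a4 RNA, with 3, 1, 0 and 0 counts in KO cultures 1 to 4 and 0, 0, 0 and 2 counts in WT cultures 1 to 4, was too sparse to test.

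The TE model, which holds the footprint contrast and is given without a test, had 3 members. The log2 difference in TE was -0.05 (SE 0.70) for S100a10, -0.32 (SE 0.74) for S100a16 and 1.21 (SE 1.28) for S100b. Each was smaller than its SE. With 1 culture left out the values ran from -0.50 to 0.35 for S100a10, from -0.64 to 0.01 for S100a16 and from 0.03 (without WT culture 1) to 1.69 for S100b, and limma-voom gave -0.61 for S100b.

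Within a genotype, S100a10 took a far larger share of footprint counts than of RNA counts, and S100b and S100a16 did so in part of the fits. In the authors' rounded TPM, which divides by length, the ratios of single cultures were smaller than in CPM. For S100a10 they ranged from 1.76 to 8.92 in KO and from 2.19 to 10.7 in WT cultures. For S100b they ranged from 1.5 to 3.1 in KO and from 1.44 to 2.64 in 3 WT cultures. For S100a16 they lay on both sides of 1, from 0.625 to 1.33 in KO and from 0.56 to 2 in WT cultures. The main fits left out the pairing of footprint and RNA libraries of 1 culture. With the culture as a block, S100a10, S100b and S100a16 passed in both genotypes. In WT cultures 4067 of all 11323 genes passed as higher in that fit. In KO cultures, footprints over RNA gave a log2 ratio of 4.87 (SE 0.75, edgeR adjusted p = 5.4e-04) for S100a10, the annexin A2 partner, and of 3.94 (SE 0.74, adjusted p = 0.00159) for S100b. S100a16 had 1.41 (SE 0.64) with an adjusted p of 0.0907, and passed with the culture as a block (adjusted p = 0.00261) or without replicate 4 (adjusted p = 0.0137). In WT cultures the log2 ratio was 4.74 (SE 0.62, adjusted p = 3.8e-04) for S100a10. For S100a16 it was 1.67 (SE 0.41, adjusted p = 0.00935, but 0.0627 without replicate 2). For S100b it was 3.22 (SE 1.37, adjusted p = 0.0854), which passed with the culture as a block (adjusted p = 3.0e-06) or without replicate 1 (adjusted p = 0.0457). The untested S100a11 had 3.19 (SE 0.67) in KO and 5.24 (SE 0.38) in WT cultures.

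Many genes shared this direction. In the fits without the block, 26.6% of all genes passed as higher in footprints in KO cultures and 22.2% in WT cultures. There 2 of 3 tested S100 genes passed in each. With the culture as a block, 4067 of 11323 genes were higher and 3798 lower in WT cultures, against 2510 and 2369 without it. In KO cultures the alternative fits gave 2649 to 4068 higher genes, against 3037 of 11418 in the main fit. The median log2 ratio over all genes was 0.01 in KO and 0.02 in WT cultures.

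Genes with short transcripts had the highest ratios. Length was read from the authors' own counts and TPM, as count over TPM relative to the median gene, for 6777 genes with enough counts. S100b stood at 0.189, S100a10 at 0.207, S100a11 at 0.208 and S100a16 at 0.282 of the median length, which is the shortest 2.24%, 2.72%, 2.76% and 5.87% of genes. Across genes, which are not independent replicates, Spearman's rho between length and ratio was -0.493 in KO cultures (6755 genes) and -0.517 in WT cultures (6745 genes). In the shortest 5% of genes the median log2 ratio was 3.62 in KO cultures (quartiles 2.56 and 4.97, 331 genes) and 3.56 in WT cultures (quartiles 2.62 and 5.02, 327 genes). Of those genes 95.8% in KO and 93.3% in WT cultures passed as higher. Among them S100a10 lay at percentile 73.4 in KO and 70.0 in WT cultures, S100b at percentile 57.4 in KO and 40.1 in WT cultures, and S100a11 at percentile 42.0 in KO and 78.0 in WT cultures. The S100 ratios lay within the range of other short transcripts. How far RNA fragmentation, size selection or counting enters this relation was not tested.

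**Figure D3:**
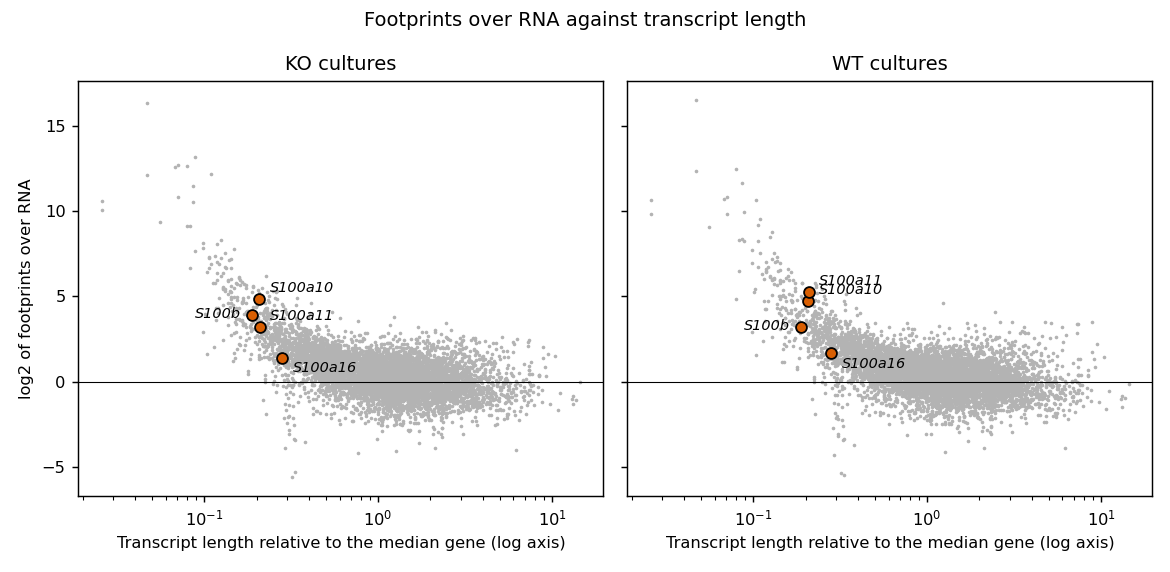
Log2 ratio of footprints over RNA (vertical axis) against transcript length relative to the median gene (horizontal log axis) in KO (left) and WT (right) cultures, with 1 grey point per gene and the 4 S100 genes in orange. S100a10, S100a11 and S100b lie among the shortest 5% of genes, whose median log2 ratio is 3.62 in KO and 3.56 in WT cultures.

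S100b and S100a10 were lower in replicates 3 and 4 of both genotypes. S100b footprints were 2.70 to 6.80 CPM in replicates 3 and 4, against 25.1 to 90.5 CPM in replicates 1 and 2. S100a10 footprints were 17.2 to 93.5 CPM in replicates 3 and 4, against 112 to 258 CPM in replicates 1 and 2. Neither pair of ranges overlapped. The log2 difference, replicates 3 and 4 over 1 and 2, was -2.96 for S100b (SE 0.51, edgeR adjusted p = 0.0142) and -1.84 for S100a10 (SE 0.40, adjusted p = 0.0225). These 2 of 5 tested S100 genes stood beside 11.5% of all genes that passed as lower. The S100b call was lost without WT replicate 3 (adjusted p = 0.0522), and the S100a10 call without KO replicate 2, WT replicate 3 or WT replicate 4 (adjusted p = 0.0580, 0.0620 and 0.0627).

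S100a11, S100a16 and S100a4 had negative values that did not pass. S100a11 had -0.86 (SE 0.28, adjusted p = 0.0626), which passed with DESeq2 (adjusted p = 0.0181), with limma-voom (adjusted p = 0.0436) and without KO replicate 3 (adjusted p = 0.0442). S100a16 had -0.76 (SE 0.45, adjusted p = 0.251) and S100a4 had -0.42 (SE 0.58, adjusted p = 0.636).

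S100b RNA followed the same split. It was 0 to 0.651 CPM in replicates 3 and 4, against 1.83 to 12.0 CPM in replicates 1 and 2, with a log2 difference of -3.06 (SE 0.93, edgeR adjusted p = 0.0432). That call was lost without any 1 of the 8 libraries (adjusted p = 0.0556 to 0.134) and with limma-voom (adjusted p = 0.0524). It was 1 of 3 tested S100 genes, beside 13.1% of all genes that passed as lower in RNA. S100a10 RNA had -0.75 (SE 0.49, adjusted p = 0.276) and S100a16 RNA -0.23 (SE 0.60, adjusted p = 0.794). The sparse S100a11 RNA, which was not tested, was 0.152 to 0.939 CPM in replicates 3 and 4, against 1.08 to 1.52 CPM in replicates 1 and 2.

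Markers of some cell types, but not of others, were lower in replicates 3 and 4 as well. Of the 10 astrocyte markers, 6 of 10 tested passed as lower in footprints (11.5% of all genes) with a median log2 difference of -1.02, and 6 of 9 in RNA (13.1% of all genes) with a median of -1.27. Of oligodendrocyte lineage markers 3 of 7 passed as lower in footprints, with a median of -1.43, and 3 of 6 in RNA, with a median of -0.38. Of neural stem and progenitor markers 5 of 11 passed as lower in footprints, with a median of -0.62, and 4 of 11 in RNA, with a median of -0.48. Over all genes the median was 0.0011 in footprints and -0.03 in RNA. Of neuroblast and neuron markers 1 of 7 passed as higher and 0 as lower in footprints, with a median of 0.21. In RNA 0 of 3 passed, with a median of -0.42. Of ependymal markers 1 of 2 passed as higher in footprints, with a median of 0.84, and 1 of 1 in RNA, at 1.18. Over all genes 7.56% passed as higher in footprints and 12.1% in RNA. No endothelial, mural, fibroblast or meningeal marker passed. Gfap, the intermediate filament of astrocytes, had the largest difference of the astrocyte list, with a log2 value of -4.07 in footprints (SE 0.63, edgeR adjusted p = 0.0122) and -4.94 in RNA (SE 0.33, adjusted p = 0.00132). The summed astrocyte marker level in footprints was 1048 to 2926 CPM in replicates 3 and 4 and 2379 to 4925 CPM in replicates 1 and 2, and in RNA 945 to 2031 CPM and 2029 to 4322 CPM; none of the 10 markers was at 0 in all libraries. Across the 8 footprint libraries S100b and Gfap correlated at r = 0.89 (rho 0.83) on the log2(CPM + 0.5) scale, a description over libraries that share the split. The identifier length, the isolation of the cultures and the marker level all change with the replicate number and cannot be told apart, and in bulk libraries neither can fewer cells of a type and less RNA per cell.

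**Figure D4:**
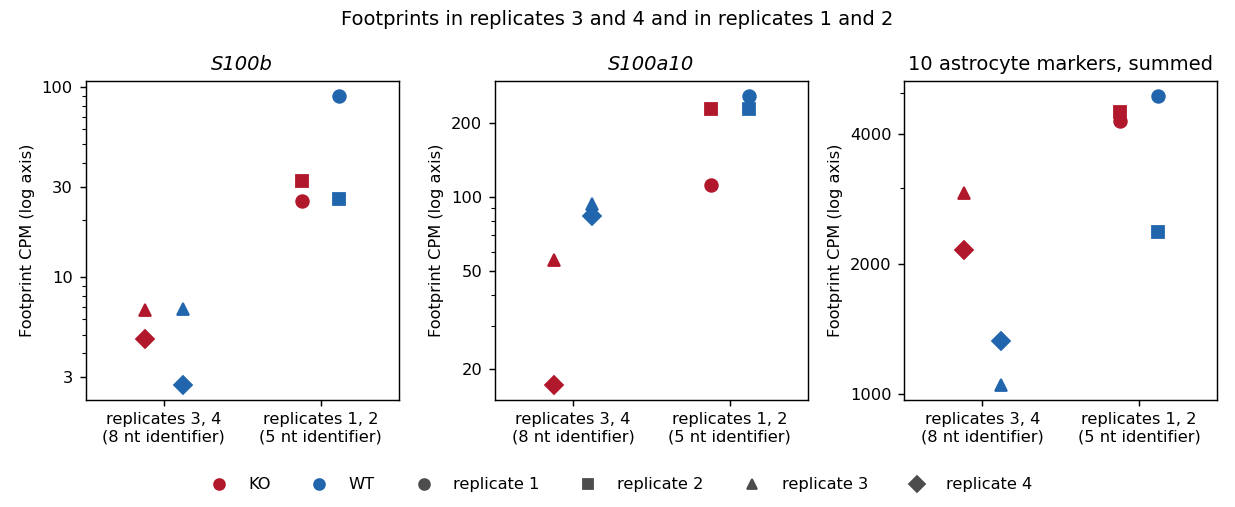
Footprints of S100b, of S100a10 and of 10 astrocyte markers summed, in CPM (log vertical axes), in replicates 3 and 4 (8 nt identifier, left) and replicates 1 and 2 (5 nt identifier, right), with 1 point per library, red for KO and blue for WT. S100b stays at or below 6.80 CPM in replicates 3 and 4 and at or above 25.1 CPM in replicates 1 and 2, and the marker sums overlap between the 2 sets.

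The members varied in step to different degrees. Across the 8 footprint libraries, on the log2(CPM + 0.5) scale, S100a10 correlated with S100a16 at r = 0.81, with S100b at 0.77 and with its chromosomal neighbour S100a11 at 0.75, while S100a4 and S100a11 had r = -0.16. These are descriptions over libraries that share genotype and replicate set. Of 9947 genes with a mean of at least 5 CPM in footprints, the 5 most like S100a11 on that scale were Nkx2-2 (r = 0.96), Sh3kbp1 (0.93), Fuca2 (0.93), Tle3 (0.93) and Kctd10 (0.92). Nkx2-2, a homeodomain transcription factor of oligodendrocyte progenitors, averaged 3.38 ± 3.64 CPM in KO and 41.0 ± 8.32 CPM in WT cultures (SD, n = 4 each).

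The binding partners and receptors of S100 proteins were counted as a list. Of 36 listed genes 30 were tested in each assay, with a median log2 fold change of 0.03 in footprints and -0.04 in RNA, beside 0.01 over all genes in both. By edgeR 0 of 30 passed in either assay, where 0.0349% of all genes passed in footprints and 0.00901% in RNA, so a list of this size would seldom hold a called gene. DESeq2 and limma-voom also called 0 of 30. At an unadjusted p of 0.05, edgeR had 2 higher (Anxa6 and Ahnak) and 1 lower (Anxa1) in footprints and 1 higher (Anxa6) in RNA. Over all genes it had 236 higher and 291 lower of 11472 in footprints and 89 higher and 119 lower of 11097 in RNA. Plat and Myh9 were the most abundant of the list in footprints, and Myh9 had a log2 fold change of -0.07 there (SE 0.16) and Plat -0.27 (SE 0.23).

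The direct partners differed in how they varied. Anxa2, which holds S100a10, had 24.9, 45.6, 49.3 and 1.85 footprint CPM in KO cultures 1 to 4 and 37.0, 32.9, 26.8 and 3.14 CPM in WT cultures 1 to 4. Cultures numbered 4 were the lowest in both genotypes, as S100a10 was, and the log2 fold change was 0.38 (SE 0.88). Anxa2 and S100a10 correlated at r = 0.70 (rho 0.45) across the 8 footprint libraries, a description. Anxa1, which holds S100a11, had 3.81, 6.95, 24.8 and 4.54 footprint CPM in KO cultures 1 to 4 and 31.7, 19.8, 181 and 7.57 CPM in WT cultures 1 to 4. KO was lower in each of the 4 pairs although the ranges overlapped, with a log2 value of -2.47 (SE 0.89) in footprints and -2.36 (SE 1.07) in RNA, neither past the adjusted threshold. Ahnak, a giant scaffold protein bound by S100a10 and annexin A2, had 5.13, 6.18, 4.37 and 29.2 footprint CPM in KO cultures 1 to 4 and 3.05, 2.20, 0.609 and 1.08 CPM in WT cultures 1 to 4. The Ahnak groups did not overlap, and its log2 value of 2.57 (SE 0.85) did not pass (edgeR adjusted p = 0.927). Cacybp, the partner of the nearly absent S100a6, was well expressed, at 252 to 431 footprint CPM in KO and 223 to 439 CPM in WT cultures.

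Other EF-hand proteins gave a further comparison. Of 50 listed genes outside the S100 family, 45 were tested in footprints and 39 in RNA, and 0 passed between genotypes by edgeR, with a median log2 fold change of 0.01 in both assays. DESeq2 called 1, Myl9 as lower in footprints, and limma-voom called 0. At an unadjusted p of 0.05, edgeR had 1 higher (Pla2g4a) and 3 lower (Sri, Sparc and Myl9) in footprints and 2 lower (Sparc and Myl9) in RNA. In footprints over RNA, 21 of 43 tested EF-hand genes were higher and 2 lower in KO cultures, with a median log2 ratio of 0.95, and 19 of 40 were higher and 2 lower in WT cultures, with a median of 0.85. Over all genes 26.6% were higher in KO and 22.2% in WT cultures, with medians of 0.01 and 0.02. The S100 ratios of 3.22 to 4.87 for S100a10 and S100b were above both EF-hand medians, as were those of S100a16, 1.41 in KO and 1.67 in WT cultures. The EF-hand list was not matched to the S100 genes for length. In the shortest 5% of genes the medians were 3.62 in KO and 3.56 in WT cultures.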

How the data were processed

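Ribosome footprints and cytoplasmic RNA were measured in 4 KO and 4 WT cultures. The authors deposited estimated counts per gene and TPM values without decimals, treated as a score because of that rounding. The submitters' processing notes name RSEM 1.2.11, TopHat2 2.0.9, Bowtie2 2.1.0, cutadapt 1.7.1, bedtools 2.22.0 and SAMtools 0.0.19 with the mm10 build. The use of strand and the collapsing of identifiers are not given in the sources used. Of 20436 rows, 27 named no gene (0.244 to 0.422% of a library's counts) and were left out. Symbols of 19269 of 20409 genes and of all 8 members matched RefSeq (GRCm38.p6). Promoter sequences are RefSeq's and were found for 7 members, all but S100a10.

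Counts were rounded and tested with edgeR 4.0.16 (R 4.3.3): TMM, filterByExpr, glmQLFit and the two-sided glmQLFTest, adjusted by Benjamini-Hochberg over all genes kept, with a threshold of 0.05. Footprints between genotypes carried a term for identifier length, and the comparison of replicate sets a term for genotype. DESeq2 1.42.0, limma-voom and limma-trend (limma 3.58.1) were alternatives, with other scalings, filters, pseudocounts and left-out libraries.

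The members and gene lists were chosen with earlier results of these data known. All 8 members, 5 direct partners, the 2 most abundant genes of the partner list and the 5 genes most like S100a11 are named, and the most abundant EF-hand genes are not reported here; Gfap, S100a8, S100a9, Anxa6, Pla2g4a, Sri, Sparc and Myl9 were named after their values were seen. Footprint and RNA libraries of 1 culture come from 1 lysate and so pair. Same-numbered KO and WT libraries, numbered in the titles, deviated together from their group means (r = 0.391 to 0.555 in footprints, 0.497 to 0.62 in RNA), against up to 0.456 and 0.379 for different numbers. Planned comparisons of protein sequences were not made. Length was instead taken from genes with at least 20 counts and 20 TPM.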

Additional observations from a re-analysis of the deposited data

How the results depend on the processing

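S100a11 footprints kept their direction in all 12 alternatives (log2 -2.48 to -2.43). S100a10 footprints over RNA passed in each alternative run in both genotypes. S100b RNA between genotypes ranged from -2.03 to 0.18 when 1 library was left out, positive only without WT replicate 1, and was positive with limma-voom (0.16) and on TPM (0.18 with a pseudocount of 1, 0.42 with 0.5). S100a16 RNA turned to -0.11 in replicates 3 and 4 alone, and its difference between replicate sets, -0.77 to 0.13 with 1 library left out, to 0.10 without KO replicate 2 and 0.13 without KO replicate 4; the cause was not tested.

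Counts of genes moved more. In RNA between genotypes 1 gene was higher and 0 lower; DESeq2 gave 13 and 7, TPM + 1 gave 2 higher, limma-voom, the replicate block and each replicate set alone gave 0 higher, and leaving out a library gave 0 to 1. In footprints 0.0349% of genes passed; DESeq2 gave 56 higher and 26 lower, the replicate block and replicates 1 and 2 alone gave 0 and 0, and replicates 3 and 4 alone gave 1 higher. Lower genes numbered 2 with DESeq2 size factors, library totals, no filter or either TPM pseudocount, and 3 with limma-voom. Leaving out a library gave 0 to 11 higher and 0 to 3 lower. In WT cultures footprints over RNA gave 4067 higher and 3798 lower with the replicate block, and 1646 to 2245 higher and 1617 to 2428 lower without 1 replicate. S100 genes called there numbered 1 to 3 without 1 replicate, and 1 above 5 CPM, a filter that S100a16 did not meet. Between replicate sets, RNA had 483 to 1311 higher, 608 to 1544 lower and 0 S100 genes without 1 library, and 0 S100 genes with limma-voom. Above 5 CPM it also had 0 S100 genes, but S100b and S100a16 did not meet that filter. Footprints had 86 to 864 higher, 233 to 1358 lower and 0 to 3 S100 genes without 1 library, and DESeq2 gave 1545 higher. The block changed no other S100 call than the 2 given with footprints over RNA. Counts of S100a1, S100a6, S100a13 and of S100a11 RNA are too few for a fit at this depth.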
